A study of Bos taurus with 111 samples.

Results

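MYH4 encodes the fast type IIb myosin heavy chain, and its transcript was followed here through every library of a study of muscle from steers that differed in residual feed intake (RFI). The gene was taken as 1 of the 24616 Ensembl genes counted, by its identifier ENSBTAG00000037794, and was chosen because earlier results on these data showed a low level broken by single high steers. Its levels are therefore given as a description, and no group was tested against another on them. Biopsies of the *M. longissimus thoracis et lumborum*, the large muscle along the back, were taken at the end of each dietary phase from Charolais (CH) and Holstein Friesian (HF) steers. The phases followed each other in the same cohort: a high concentrate diet (H1), zero-grazed grass (ZG), and the high concentrate diet again during finishing (H2), each with a feeding phase of 70 d. Steers were a mean of 283 d (CH) or 306 d (HF) old, and weighed 395 kg (CH) or 294 kg (HF), when the first phase began. Low-RFI (L-RFI) steers ate less than their growth and weight predicted and high-RFI (H-RFI) steers ate more, with 12 steers planned per class in each breed and phase. The labels name no treatment other than these diets. Diet, age and body weight changed together between phases, so their parts cannot be told apart.

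A skeletal muscle fibre contracts at a speed set largely by the myosin heavy chain it contains. In the adult the slow type I chain, the intermediate IIa chain and the fast IIx and IIb chains come from separate genes, of which the fast genes stand side by side with the embryonic and perinatal genes in 1 cluster. In the RefSeq annotation of ARS-UCD2.0, the order of the genes around MYH4 was GAS7, MYH13, MYH8, MYH4, an unnamed locus, MYH1, MYH2 and MYH3. The IIb chain is the fastest of these and is abundant in fast limb muscles of rodents, whereas the trunk and limb muscles of cattle are known mainly for I, IIa and IIx fibres. The coding sequences of these myosins resemble each other closely. Reads that map to several places were left out of the gene counts and made up 4.56% to 35.0% of a library, so MYH4 counts are uncertain to the extent that its reads also fit a neighbouring myosin.

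Of the 111 libraries deposited, 104 from 77 steers were used, in 12 groups of 7 to 11 that combine breed, phase and RFI class. The libraries held 2201765 to 52552057 reads counted on genes (median 15852125), and levels are given as counts per 1000000 of these reads (CPM). A count of 3 reads, taken as the floor, stood for 0.0571 to 1.36 CPM. Of the 7 libraries left out, 6 had under 1000000 gene counts and 0 MYH4 reads, and their floors of 5.07 to 746.5 CPM lay above the usual level of the gene. The seventh, from CH steer 571 on ZG, held 1 MYH4 read among 13818659 and stood apart by its albumin level, at 101449 CPM against at most 8576 CPM in the libraries used. Of the 8 skeletal muscle markers listed, 0 had a symbol paired with an identifier in the names used here, so the tissue label was not checked by them. Intervals and floors cover counting error only. In bulk tissue, fewer fibres that use a gene and less RNA per fibre cannot be told apart.

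Most steers had MYH4 at a few CPM, and a few had it 1 order of magnitude or more above that. In 95 libraries MYH4 lay between 0 and 8.555 CPM, with a median of 3.04 CPM and a mean of 3.15 ± 1.61 CPM (SD, n = 95 libraries). In the other 9 libraries it lay between 45.15 and 219.7 CPM, with a median of 80.9 CPM. The number of libraries between 8.555 and 45.15 CPM was 0, a gap of 5.28-fold. The 9 were found by 1 rule, a MYH4 level over 5 times the median of the library's own group, and this rule marked the same 9 libraries with TMM-normalized CPM and with unstranded counts. They came from 8 steers and held 20848 of the 26251 MYH4 reads, or 79.4%.

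**Figure D1:**
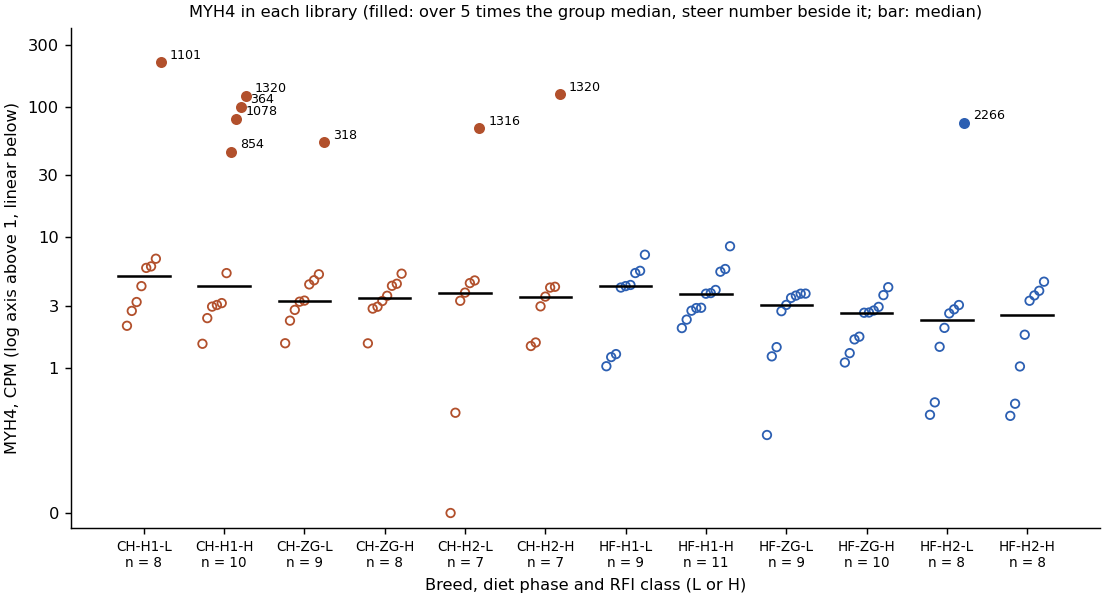
MYH4 level in CPM (vertical axis, logarithmic above 1 and linear below) in each of the 104 libraries, by breed, diet phase and RFI class. Filled points are the 9 libraries over 5 times their group's median, between 45.15 and 219.7 CPM, with the steer's number. Open points are the other 95, at 8.555 CPM or below, and black bars are group medians.

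The highest level was in CH steer 1101, an L-RFI steer in H1, with 8717 reads or 219.7 CPM (95% Wilson interval 215.1 to 224.4). That was 67.8 times the median of all 104 libraries, 3.24 CPM. Steer 1320, a CH H-RFI steer, gave the second and the third highest levels, from 2 different biopsies. Its library from H2 held 1574 MYH4 reads or 124.8 CPM (118.8 to 131.1). Its library from H1 held 1555 reads or 121 CPM (115.1 to 127.2). These intervals overlap, so by plain CPM the difference between the phases in steer 1320 was within counting error. The other CH H-RFI steers of H1 that stood out were 364 with 99.82 CPM, 1078 with 80.91 CPM and 854 with 45.15 CPM. CH L-RFI steers stood out in ZG (318, with 53.39 CPM) and in H2 (1316, with 68.44 CPM). The single HF steer above the gap was 2266, an L-RFI steer in H2, with 2177 reads or 75.55 CPM (72.44 to 78.79). By breed, 7 of 35 CH steers and 1 of 42 HF steers were above the gap. By RFI class the libraries above it were 4 of 50 L-RFI and 5 of 54 H-RFI, and by phase 5 of 38 in H1, 1 of 36 in ZG and 3 of 30 in H2. Since the steers were singled out by this level, these counts are a description and the differences between breeds, phases and classes were not tested.

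Nearly all of these reads ran in the direction of the MYH4 transcript: over the 104 libraries 0.357% of the stranded MYH4 reads were on the opposite strand. The largest number on the opposite strand was 41, beside 2795 in the sense direction, in CH steer 1078 in H1. At the low end, steer 856 (CH, L-RFI, H2) had 0 MYH4 reads of 2201765, which allows up to 1.36 CPM at the floor of 3 counts, and it was the shallowest library used. The next lowest was HF steer 1668 (L-RFI, ZG), with 6 reads or 0.538 CPM (0.247 to 1.17). MYH4 was above the floor in 103 libraries and at 1 CPM or more in 97. Low levels thus rested on few reads, with a median of 50 reads in the 95 libraries below the gap.

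Within the groups, medians were close together and ranges were wide. In CH steers on H1, L-RFI libraries ran from 2.10 to 219.7 CPM with a median of 5.04 (n = 8). H-RFI libraries of the same breed and phase ran from 1.53 to 121 CPM with a median of 4.23 (n = 10). Both classes held libraries above the gap, 1 in L-RFI and 4 in H-RFI, and their ranges overlapped. On ZG, CH L-RFI libraries ran from 1.55 to 53.39 CPM with a median of 3.28 (n = 9), and CH H-RFI libraries from 1.54 to 5.275 CPM with a median of 3.42 (n = 8). The CH H-RFI steers on ZG were the 1 CH group without a library above the gap. On H2, CH L-RFI libraries ran from 0 to 68.44 CPM with a median of 3.78 (n = 7), and CH H-RFI libraries from 1.47 to 124.8 CPM with a median of 3.52 (n = 7). In each of these H2 groups a single steer stood far above the others.

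In HF steers the groups were more even. On H1, L-RFI libraries ran from 1.03 to 7.37 CPM with a median of 4.24 (n = 9), and H-RFI libraries from 2.02 to 8.555 CPM with a median of 3.71 (n = 11). On ZG, L-RFI libraries ran from 0.538 to 3.71 CPM with a median of 3.04 (n = 9), and H-RFI libraries from 1.10 to 4.16 CPM with a median of 2.65 (n = 10). None of these 4 groups held a library above the gap. On H2, L-RFI libraries ran from 0.677 to 75.55 CPM with a median of 2.32 (n = 8), where only steer 2266 was above 3.03 CPM, and H-RFI libraries from 0.670 to 4.58 CPM with a median of 2.53 (n = 8). Ordered by median, the groups ran from CH-H1 L-RFI at 5.04 CPM, HF-H1 L-RFI at 4.24 and CH-H1 H-RFI at 4.23 down to HF-H2 H-RFI at 2.53 and HF-H2 L-RFI at 2.32. The ranges overlapped in all 11 pairs of neighbours in this order, and also in all 66 pairs of groups. No group therefore stood outside the spread of its neighbours.

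The order depended on the scaling. TMM scaling, which sets the bulk of genes equal between libraries, placed the CH-ZG L-RFI group first, at a median of 4.85, from eighth by plain CPM. With it, the medians of the 6 CH groups ran from 3.43 to 4.85 and those of the 6 HF groups from 1.92 to 3.21. By plain CPM the same medians ran from 3.28 to 5.04 in CH and from 2.32 to 4.24 in HF and were interleaved. With the 9 libraries above the gap set aside, an alternative chosen after seeing the data, the median was 3.26 CPM over 41 CH libraries and 2.84 CPM over 54 HF libraries. Per 100000 reads of ENSBTAG00000018204, a scale described further on, the order of the breeds turned, with medians of 9.10 in these CH and 10.1 in these HF libraries. The part of the overall RNA makeup in this breed difference was not tested.

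Group means followed the libraries above the gap. The mean was 31.3 ± 76.1 CPM (SD, n = 8) in CH-H1 L-RFI and 36.5 ± 47.0 CPM (n = 10) in CH-H1 H-RFI. It was 8.98 ± 16.7 CPM (n = 9) in CH-ZG L-RFI and 3.51 ± 1.15 CPM (n = 8) in CH-ZG H-RFI. In H2 the CH means were 12.2 ± 24.9 CPM for L-RFI and 20.4 ± 46.1 CPM for H-RFI, with n = 7 in each. The SD exceeded the mean in each of these groups except CH-ZG H-RFI, where no library was above the gap. Without 1 steer, the mean fell to 4.42 CPM in CH-H1 L-RFI (steer 1101), to 3.43 CPM in CH-ZG L-RFI (318), to 2.81 CPM in CH-H2 L-RFI (1316) and to 2.97 CPM in CH-H2 H-RFI (1320). In CH-H1 H-RFI, with 4 steers above the gap, leaving out steer 1320 gave 27.1 CPM and leaving out all 4 gave 3.07 CPM. The HF-H2 L-RFI mean of 11.1 ± 26.05 CPM (n = 8) fell to 1.91 CPM without steer 2266. The other 5 HF groups had means of 2.45 to 4.00 CPM.

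**Figure D2:**
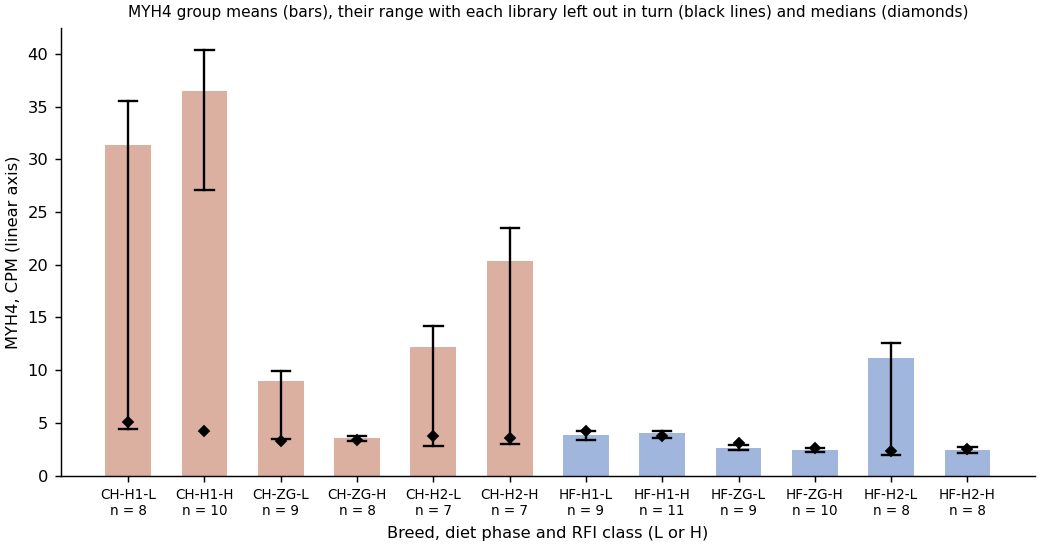
Mean MYH4 level of each group in CPM (bars, linear axis from 0), the lowest and highest mean when each library is left out in turn (black lines) and the group median (diamonds). In the 5 groups with 1 library above the gap the mean falls to between 1.91 and 4.42 CPM when that library is left out, whereas the medians of all groups lie between 2.32 and 5.04 CPM.

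The contrast of RFI classes, which is the question of the study, depended on these steers, and in CH-H1, CH-ZG and HF-H2 its direction did too. In CH-ZG the L-RFI mean was 2.55 times the H-RFI mean, and 0.975 times it without steer 318. In HF-H2 it was 4.54 times the H-RFI mean, and 0.781 times it without steer 2266. In CH-H1 the ratio of L-RFI to H-RFI was 0.858 with all libraries and 1.44 without the 5 above the gap. In CH-H2 it was 0.598, and 0.947 without steers 1316 and 1320. In HF-H1 and HF-ZG, where no library was above the gap, the ratios were 0.957 and 1.06. The medians of L-RFI steers were 0.917 to 1.19 times those of H-RFI steers in the 6 comparisons. In each breed and phase the ranges of the classes overlapped.

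Repeat biopsies set a steer beside itself in another phase, and for the high level they did so in 1 steer only. Of the steers, 25 had libraries in more than 1 phase, 23 in 2 phases and 2 in all 3. Steer 1320 was above the gap in both of its libraries. The other 24 were below it in every library, with at most 8.555 CPM. The number of steers above the gap in one phase and below it in another was 0, but the other 7 steers above the gap had 1 library each, so whether their level would recur was not measured.

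**Figure D3:**
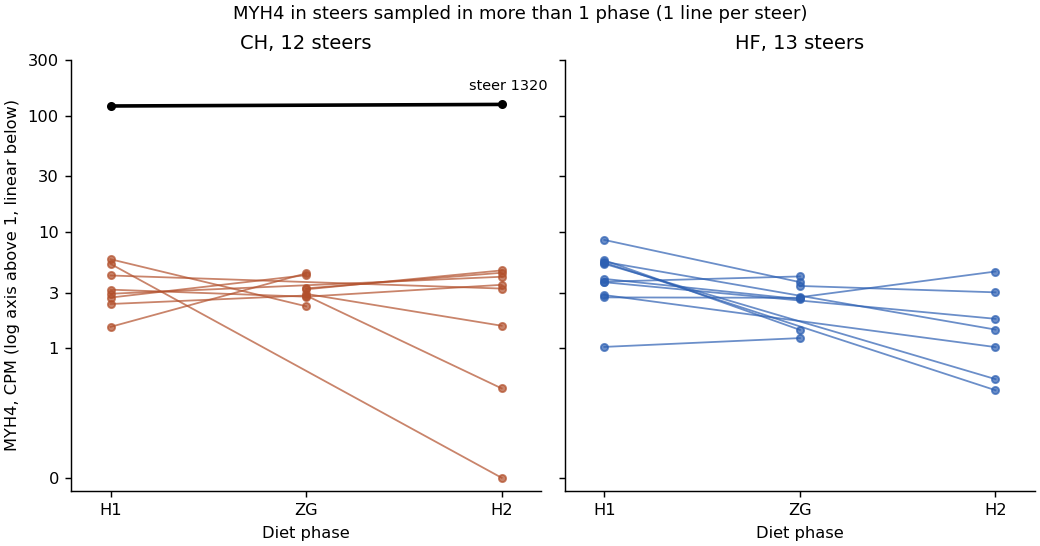
MYH4 level in CPM (vertical axis, logarithmic above 1 and linear below) in the steers sampled in more than 1 phase, with 1 line per steer, 12 CH steers on the left and 13 HF steers on the right. Steer 1320 (black) lies at 121 CPM in H1 and 124.8 CPM in H2, and the other 24 steers stay at 8.555 CPM or below.

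Below the gap, MYH4 was lower in H2 than in H1 in all 5 HF steers sampled in both phases. Steer 2095 went from 5.55 to 1.45 CPM, steer 2220 from 5.34 to 0.763 CPM and steer 1920 from 5.46 to 0.677 CPM. Steer 2071 went from 3.71 to 1.80 CPM and steer 1811 from 2.88 to 1.03 CPM. The H2 values rested on 8 to 70 reads. With TMM-normalized CPM the number higher in H2 was again 0 of 5. Among the CH steers below the gap in both phases, 2 of 5 were higher in H2, or 1 of 5 with TMM-normalized CPM. Of the 2 steers with all 3 phases, both CH, steer 1100 had 3.20 CPM in H1, 2.78 in ZG and 3.52 in H2, and steer 307 had 2.41, 2.85 and 0.691 CPM. Steer 856 went from 5.33 CPM in H1 to 0 reads in H2. From H1 to ZG, 3 of 5 CH steers and 2 of 6 HF steers were higher on grass. Of these 25 steers, 8 had changed RFI class between phases, so class and phase are mixed in some of these pairs.

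Across all libraries below the gap, the mean of log2(CPM + 1) for MYH4 was 2.18 ± 0.57 in H1 (SD, n = 33), 1.91 ± 0.49 in ZG (n = 35) and 1.67 ± 0.69 in H2 (n = 27). The difference from H1 to H2 was -0.51 on this scale. Over the 10291 genes that reached 1 CPM in 50% or more of the libraries, the median difference from H1 to H2 was itself -0.30, and from H1 to ZG it was -0.23 against -0.27 for MYH4. With the 9 high libraries included, the MYH4 differences were -0.62 from H1 to H2 and -0.75 from H1 to ZG. Relative to the bulk of genes the difference of MYH4 was therefore smaller than plain CPM show. Each of these MYH4 differences was smaller than the SD of the H1 libraries in the same set, which was 1.64 with the high libraries included.

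The genes most like MYH4 were sought among the other 10290 genes that passed the same level, by Spearman's rho of CPM across the 104 libraries. The 2 highest were ENSBTAG00000018204 (rho = 0.74) and ENSBTAG00000015848 (rho = 0.70), which the names used here do not pair with a symbol. Since the libraries fall into 2 ranges of MYH4, rho was also taken within each, which was decided after seeing the data. Within the 95 libraries below the gap it was 0.81 for ENSBTAG00000018204 and 0.75 for ENSBTAG00000015848, again the 2 highest of all genes. Within the 9 above it the values were 0.18 and 0.40. The libraries share steers in part and each CPM shares its denominator with all genes, and rho was over 0.5 for 25.5% of all genes compared, with a median of 0.36. No named gene was among the 100 with the highest rho.

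ENSBTAG00000018204 was among the abundant transcripts of the muscle, at 5518 to 63543 CPM. For each 100000 of its reads, the 95 libraries below the gap held 0 to 21.5 MYH4 reads, with a median of 9.497 and a coefficient of variation of 0.356, against 0.511 for the MYH4 CPM themselves. The 9 libraries above the gap held 129 to 625 MYH4 reads per 100000, and the level of ENSBTAG00000018204 in them, 19971 to 53181 CPM, lay inside its range in the other libraries. Against the libraries below the gap in the same group, it was above their median in 7 of the 9. It was above their range in steer 1316 (53181 against at most 42917 CPM) and steer 2266 (31539 against at most 31351 CPM). Counts of this kind were not taken over all genes. On the scale of reads per 100000, added after seeing the data, the same 9 libraries were over 5 times their group's median. The group medians ran from 8.20 to 13.5 reads per 100000 and were highest in HF-H1 L-RFI and lowest in CH-ZG L-RFI. MYH4 thus moved with this gene among the low libraries and apart from it in the high ones. Whether the low MYH4 counts include reads of this abundant gene, assigned to MYH4 through likeness of sequence, was not tested, so a low level is not shown to be MYH4 transcript. In the low libraries MYH4 CPM also had a rho of 0.43 with the percentage of multimapping reads and of 0.23 with the gene counts, and the part of either was not tested.

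**Figure D4:**
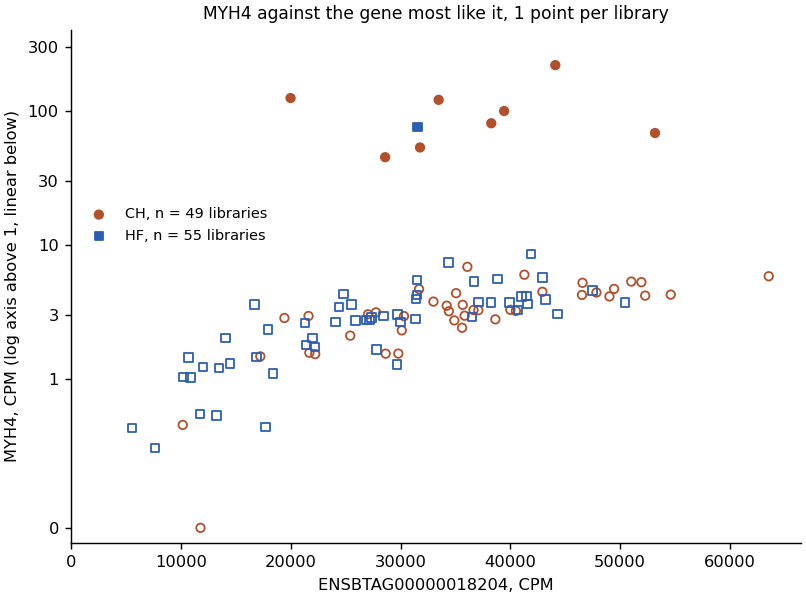
MYH4 level in CPM (vertical axis, logarithmic above 1 and linear below) against the level of ENSBTAG00000018204 in CPM (horizontal axis, linear), with 1 point per library, 49 CH (circles) and 55 HF (squares). Open points are the 95 libraries below the gap, in which the levels moved together (rho = 0.81), and filled points are the 9 above it, which lie far above the others at similar levels of the second gene.

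Other fibre genes were read from lists of myosins, slow fibre genes and genes of developing or regenerating fibres, of which those named here come from genes that the study had picked on these same samples. Of 10 myosin heavy chains listed 3 were matched: MYH4, MYH8, the perinatal chain expressed around birth and in regenerating fibres, and MYH6, the alpha chain of heart muscle that is also found in some slow fibres. The fast fibre genes (0 of 19) and the regulators of fibre type (0 of 30) were not analysed here for want of a matched name.

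MYH8, the neighbour of MYH4 in the cluster, ran from 1.08 to 274.5 CPM with a median of 23.9 CPM over the 104 libraries. In steer 1101 it was at 172.3 CPM, above the 1.73 to 23.1 CPM of the other CH-H1 L-RFI steers. In steer 1320 it was at 231.3 CPM in H1, above the 8.49 to 75.6 CPM of the CH-H1 H-RFI steers below the gap, and at 62.9 CPM in H2, inside the range of its group. In the other 6 libraries with high MYH4, MYH8 lay inside the range of their group's libraries below the gap, at 21.1 to 55.0 CPM. The highest MYH8 level of all, 274.5 CPM, was in steer 449 (CH, H-RFI, ZG), which had MYH4 at 4.42 CPM. Against the libraries below the gap in the same group, MYH8 was above their median in 7 of the 9 libraries with high MYH4 and above their range in 2. The 9 are not independent, since 4 share the CH-H1 H-RFI group and steer 1320 gave 2. Such counts were not taken over all genes, so they are a description only. Spearman's correlation of MYH8 with MYH4 was 0.33 within the 95 libraries below the gap and 0.73 within the 9 above it. Among 10290 genes the first value ranked 5562nd. Over all 104 libraries rho was 0.39, near the median of 0.36 over all genes. The 9 libraries came from 8 steers, and the rank of 0.73 among all genes was not taken.

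Further genes of developing muscle stood high in the H1 library of steer 1320 together with MYH4 and MYH8. TNNT2, the cardiac and embryonic troponin T, was at 20.2 CPM there, against 1.404 to 2.376 CPM in the CH-H1 H-RFI steers below the gap and at most 4.30 CPM in any library below it. ACTC1, the cardiac alpha-actin also made by developing fibres, was at 64.1 CPM against 8.20 to 51.7 CPM. CHRND, the delta subunit of the muscle acetylcholine receptor, was at 7.08 CPM against 0.543 to 5.72 CPM. In H2 the same steer had TNNT2 at 0.714 CPM, ACTC1 at 4.52 CPM and CHRND at 1.43 CPM, each inside the range of its group, while its MYH4 was at 124.8 CPM. By plain CPM, the level of MYH4 in steer 1320 was therefore alike in a library with and in a library without high values of these genes. With TMM-normalized CPM it was 119.4 in H1 and 96.5 in H2. Per 100000 reads of ENSBTAG00000018204 it was 361.6 in H1 and 625 in H2, so the likeness depended on the scaling. In steer 854 CHRND was at 20.8 CPM, its highest level in any library. The other libraries with high MYH4 had TNNT2 at 1.64 CPM or below and CHRND at 2.21 CPM or below. Against the libraries below the gap in the same group, TNNT2 was inside their range in only 3 of the 9. It was slightly above in steer 318 (1.64 against at most 1.55 CPM) and below in steers 364, 1078, 854 and 1316. These values were singled out after they were seen, and such counts were not taken over all genes.

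Tests of the other fibre genes used the fit across all genes, and a gene was called where the p-value adjusted after Benjamini and Hochberg was under 0.1 and the fold over 1.5. Between L-RFI and H-RFI steers, edgeR's quasi-likelihood test called 0% of the genes tested in each of the 6 comparisons, 0 of 9823 to 10812 genes. Genes with an unadjusted p-value under 0.05 numbered 72 in HF-H2 to 1228 in HF-ZG. DESeq2's Wald test called 0 to 2 genes and edgeR's exact test 0 to 2 genes per comparison. No fibre gene tested was called in any of these. MYH8 was lower in L-RFI steers by a log2 fold change of -1.66 ± 0.57 (SE) in CH-ZG and -1.28 ± 0.74 in CH-H2, with adjusted p-values of 1 in edgeR's quasi-likelihood test. In CH-H1 the values were -0.74 ± 0.69 for MYH8 and -1.38 ± 0.60 for TNNT2, where steer 1320 belongs to the H-RFI class, with adjusted p-values of 0.999. The value for TNNT2 was -0.17 ± 0.27 with DESeq2's Wald test.

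Between breeds, limma voom with the steer as a block called 1.32% of 10291 genes, 19 higher and 117 lower in CH. Of the 7 fibre genes tested (MYH8, MYH6, ACTC1, TNNT2, CHRND, MYL6B and CSRP3) the number called was 0. MYH8 differed between CH and HF by a log2 fold change of 0.08 ± 0.24, MYH6 by -0.10 ± 0.15 and ACTC1 by -0.55 ± 0.26 (adjusted p = 0.244, limma voom). ACTC1 was called lower in CH with edgeR's quasi-likelihood test without the block (adjusted p = 0.0055), and in 1 of 6 alternatives in all. Steers with high MYH4 were thus mostly CH, while MYH8 and MYH6 were not called between breeds. Over the 6 alternatives the difference of MYH8 ran from -0.14 to 0.59 (lowest adjusted p = 0.111, edgeR's quasi-likelihood test without the block), so its size and sign depended on the fit, and that of MYH6 ran from -0.22 to -0.08.

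Between phases, limma voom called 2.52% of genes for ZG against H1, 2.89% for H2 against ZG and 11.2% for H2 against H1. Most genes called in H2 were lower, 265 of 297 against ZG and 1043 of 1154 against H1. For ZG against H1, 90 were higher and 169 lower. ACTC1 was lower in H2, by -0.88 ± 0.31 on the log2 scale against H1 (adjusted p = 0.0277, limma voom) and by -0.88 ± 0.32 against ZG (adjusted p = 0.0716). CHRND was higher on ZG than in H1 by 0.76 ± 0.28 (adjusted p = 0.0731). ACTC1 kept its call against H1 in all 6 alternatives, with adjusted p-values of 0.0245 to 0.0811, whereas its call against ZG held in 4 of 6 (0.0497 to 0.378) and the call of CHRND in 3 of 6 (0.073 to 0.161). MYH8, MYH6 and the slow fibre genes MYL6B, a light chain of slow myosin, and CSRP3, a Z-disc protein, passed the test in 0 of the 3 phase comparisons. TNNT2 in H2 against ZG had an adjusted p of 0.0425 in limma voom and a log2 fold change of -0.55 ± 0.18, under the fold limit. FABP4 and CIDEC, markers of adipocytes, were called higher in H2 than in H1 by 1.58 ± 0.39 (adjusted p = 0.00169, limma voom) and 1.84 ± 0.39 (adjusted p = 0.000265) on the log2 scale, and also higher than in ZG, and their part in the lower ACTC1 was not tested.

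**Figure D5:**
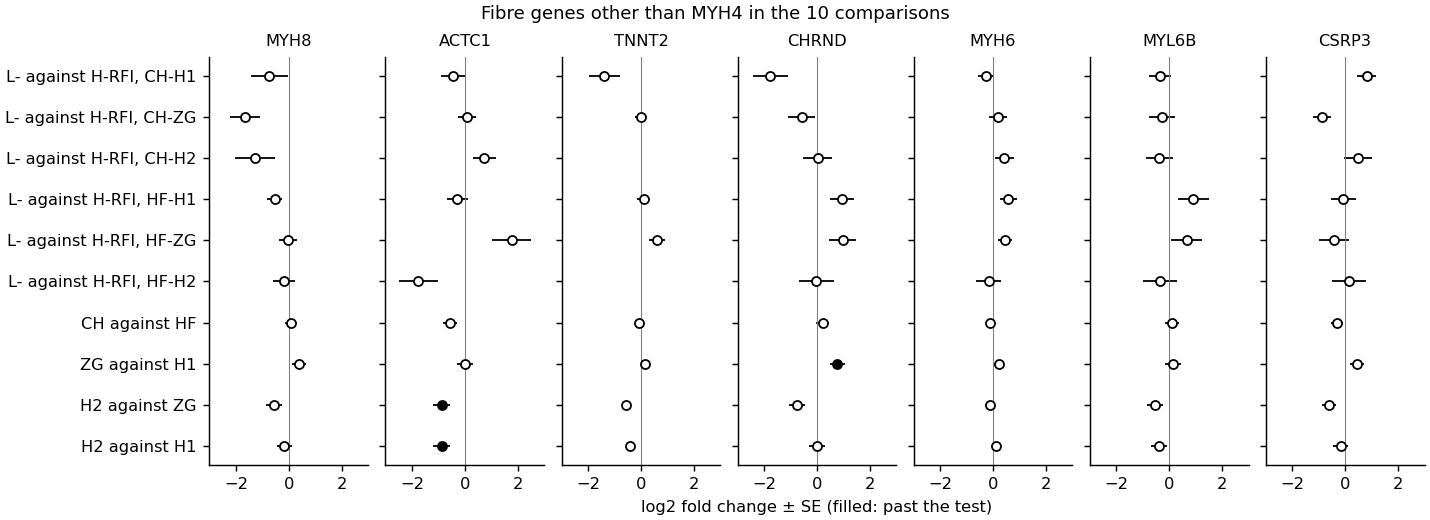
Log2 fold change (horizontal axis, points, with bars of 1 standard error) of 7 fibre genes other than MYH4 in the 6 comparisons of L-RFI with H-RFI steers, between breeds and between phases. Filled points passed the test: CHRND for ZG against H1 and ACTC1 for H2 against ZG and against H1. A gene without a point was under the level filter in that comparison.

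Markers of other cell types were set beside the 9 libraries with high MYH4. Liver and plasma protein transcripts (4 of 5 listed, ALB, FGB, FGG and AHSG) summed to 43.8 to 399 CPM in them and to 18.8 to 13433 CPM in the other 95. Against the libraries below the gap in the same group, ALB was above their median in 8 of the 9 and inside their range in 6. Adipocyte markers (2 of 5, FABP4 and CIDEC) summed to 0.995 to 33.2 CPM against 0.123 to 140.7 CPM. Blood and leukocyte markers (3 of 6, PTPRC, CD3E and LYZ) summed to 2.95 to 43.0 CPM against 0.592 to 103.3 CPM, with CD3E at 0 in 2 of all libraries, LYZ at 0 in 3 and FABP4 at 0 in 1. Heart markers (2 of 4, MYH6 and TNNT2) summed to 169.5 to 477 CPM against 84.1 to 691 CPM. MYH6 was inside the range of the same group's libraries below the gap in 5 of the 9, and TNNT2 in 3. In each of the 4 lists the sums of the 9 lay inside the range of the other 95. Within its own group, however, steer 318 (CH, L-RFI, ZG) stood far above the others for all 3 leukocyte markers, with PTPRC at 22.8 CPM against at most 1.07, LYZ at 13.6 CPM against at most 0.595 and CD3E at 6.66 CPM against at most 1.61. In the other 8 libraries PTPRC and LYZ lay inside the range of their group's libraries below the gap. How many of the 9 lie above a median or inside a range was not counted over all genes. The part of these cell types in the MYH4 levels was not tested. Markers of connective tissue (0 of 4) and of extraocular muscle (0 of 3) were not analysed here. For comparison between breeds, FABP4, CIDEC, PTPRC, CD3E and LYZ were lower in CH in limma voom, by -1.62 ± 0.33 for FABP4 (adjusted p = 0.000964) and by -0.85 ± 0.25 for CD3E (adjusted p = 0.0314), where 1.32% of all genes were called. These were both adipocyte and all 3 blood genes matched, and 0 of the 4 plasma protein genes were called. The matched markers come from genes that the study had picked on these same samples. Their share called is therefore not a fair match for the share of all genes.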

How the data were processed

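RNA of muscle biopsies was sequenced by the authors as stranded libraries from 83 steers. The deposited values are raw read counts per gene and library from STAR's GeneCounts mode, with unstranded, first-strand and reverse-strand columns for 24616 genes; the authors neither filtered nor normalized them before deposit. The submitters' processing notes name FastQC 0.11.5, STAR 2.5.1, HTSeq, DESeq2 and the build UMD3.1, while the study's methods name ARS-UCD1.2 with the Ensembl annotation and edgeR, so the build of the counts is not certain and no coordinates are given.

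Reverse-strand counts were used (97.6% or more of stranded counts, median 99.0%). Breed, diet and RFI class came from the labels and the steer from the sample titles. Libraries under 1000000 gene counts and that of steer 571 on ZG were left out. CPM are counts per 1000000 gene counts, log values used a pseudocount of 1, and 95% Wilson intervals and a floor of 3 counts were computed per library. The number of library pairs with identical counts was 0. P-values measure the spread between steers, which were single animals.

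L-RFI and H-RFI steers were compared within breed and phase by edgeR's quasi-likelihood test (TMM, genes reaching 1 CPM in 50% or more of libraries, Benjamini-Hochberg adjusted p under 0.1 over all genes, fold change above 1.5). Breeds and phases were compared with limma voom on 104 libraries, 1 mean per group, blocked by steer (duplicateCorrelation, consensus 0.097), since 25 steers gave more than 1 library. The block pairs libraries of the same animal, and steers do not recur within an RFI comparison. The RFI tests in CH-H1 and HF-ZG, and the breed comparison without the block, were tried on simulated data with known changes. The other RFI comparisons, the blocked fit and the phase comparisons were not tried in this way. Alternatives were DESeq2's Wald test, edgeR's exact test, RLE size factors, no filter, unstranded counts, all libraries, no replicate block, TMM-normalized CPM and leaving out each library. Other settings, chosen after seeing the data, were the group levels without the 9 libraries above the gap, MYH4 reads per 100000 reads of ENSBTAG00000018204 and rho within each range.

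MYH4, the lists and the rules were chosen with earlier results of these data known. The genes named were MYH4, the listed myosin heavy chains, up to 4 called members per list, the 5 genes of highest rho (at most 2 unnamed identifiers printed) and libraries over 5 times their group's median; TNNT2 and CHRND in steers 1320 and 854 were named after their values were seen. Symbols came from a supplementary table of the study that lists genes it called on these samples. The table was used for its names only and paired 151 identifiers, so each gene matched by name had been picked on these data. Counts were tested with DESeq2 1.42.0, limma 3.58.1 and edgeR 4.0.16 in R 4.3.3, and levels were computed and drawn with pandas 2.3.3, scipy 1.17.1, numpy 2.4.6 and matplotlib 3.10.9 in Python 3.11.15.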

Additional observations from a re-analysis of the deposited data

Results flagged for a closer look

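In 5 of the 11 groups of 7 to 10 libraries, the gap from the highest MYH4 level to the next was a larger share of the group's range than Dixon's 95% critical value. The libraries were steer 1101 in CH-H1 L-RFI at 219.7 CPM, steer 318 in CH-ZG L-RFI at 53.39 CPM, steer 1316 in CH-H2 L-RFI at 68.44 CPM, steer 1320 in CH-H2 H-RFI at 124.8 CPM and steer 2266 in HF-H2 L-RFI at 75.55 CPM. The gap to the nearest library took up 0.929 to 0.978 of the range of the group. The CH-H1 H-RFI group, with 4 high steers, had none marked in this way, since the high values lie near each other, and the HF-H1 H-RFI group of 11 was not examined. Since the gene was chosen for single high steers, these gaps restate that choice, and the usual rate of about 1 group in 20 by chance does not apply to them.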

How the results depend on the processing

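The MYH4 medians and means of the 12 groups moved by less than 1 SD between libraries under TMM-normalized CPM, unstranded counts and all libraries, and the means also with each library left out. That SD is large where a library lies above the gap: in CH-ZG L-RFI the TMM median moved from 3.28 to 4.85, more than the SD of 1.25 without steer 318. The means that 1 steer decides are given with the results. For the RFI comparisons, 0 genes became 2 in CH-H1, 2 in CH-H2 and 1 in HF-ZG with DESeq2's Wald test, and 2 in CH-H1 and 1 in CH-H2 with edgeR's exact test. For breeds and phases, the calls without the replicate block were 146 (breed), 234 (ZG against H1), 281 (H2 against ZG) and 1094 (H2 against H1), against 136, 259, 297 and 1154 with it, and the 3 calls of fibre genes held without the block in limma voom. edgeR's quasi-likelihood test, also without the block, called 237 genes between breeds and 625 for H2 against H1. Without the filter the counts were 470 between breeds, 477 for H2 against ZG and 2142 for H2 against H1, over 19405 genes. With all libraries they were 74 between breeds, 112 for ZG against H1, 195 for H2 against ZG and 742 for H2 against H1. The cause of these shifts was not tested. Pearson's r on log2(CPM + 1) with MYH4 was 0.44 for ENSBTAG00000018204, which then ranked 165th of 10290 genes; rho was 0.57 in CH and 0.82 in HF libraries, 0.71 with the first library of each steer and 0.77 without the 2 libraries farthest from the median. Depth limits the low MYH4 levels, which rest on a median of 50 reads.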

Other observations

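High values in single steers were also seen for other fibre genes, in steers with high MYH4 and in others. Libraries with high MYH4 were 9 of 104. TNNT2 was highest in steer 1320 in H1 and CHRND in steer 854, both with high MYH4. The highest levels of MYH8, ACTC1, MYL6B, CSRP3 and MYH6 were in steers without it. ACTC1 reached 336.2 CPM in steer 2065 and 321.4 CPM in steer 1961, both HF L-RFI steers on ZG, with MYH4 at 2.72 and 3.58 CPM. MYL6B and CSRP3 were both highest in steer 2272 (HF, H-RFI, ZG), at 2404 and 2406 CPM, where MYH4 was at 1.299 CPM. MYH6 was highest in steer 2259 (HF, L-RFI, H1), at 690.2 CPM, with 6 MYH4 reads. These libraries were named after their values were seen.

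Among the 10291 genes that reached 1 CPM in 50% or more of the libraries, 67 genes, or 0.651%, had a larger ratio of the highest to the median level than the 67.8 of MYH4. Since MYH4 was chosen for single high steers, this rank restates that choice and does not measure how rare such a pattern is.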
